A study of Mus musculus with 17 samples.

Results

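The Ifitm genes of the mouse were followed through the diaphragm transcriptome of tumor-bearing and tumor-free mice. The genes are Ifitm1, Ifitm2, Ifitm3, Ifitm6 and Ifitm10, taken by their symbols, 5 rows of a table of 47643 gene symbols. They were chosen by results already known from these mice, in which Ifitm1 stood out between tumor-bearing and tumor-free animals. For that reason every difference between mice with and without a tumor is given below as a description of the 5 genes, with no p-value. Where members called in such a comparison are counted, the count stands beside the share of all genes and supports nothing. For the 5 genes, tests with p-values are kept for the effect of rFibcd1, while p-values of other genes are given in either kind of comparison.

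The data are RNA sequencing of diaphragms, each from 1 of 17 C57BL/6J males that were 4 months old. Among the 10 tumor-free animals 5 had mock injections (Control) and 5 had rFibcd1 (Control + rFibcd1), while of the 7 animals carrying LLC tumors 3 had mock injections (LLC) and 4 had rFibcd1 (LLC + rFibcd1). LLC tumors grow from Lewis lung carcinoma, a mouse cancer cell line injected here under the skin, and rFibcd1 is the recombinant C-terminal part of mouse Fibcd1, whose fibrinogen-like domain is released from cells, given into the peritoneal cavity in the last week. The mock injections held the buffered saline with bovine serum albumin that carries rFibcd1. Each library is bulk RNA from a piece of the muscle of 1 mouse, since the rest was kept for sections, so fewer cells of a type and less RNA per cell cannot be told apart. Summed over 8 myofiber genes such as Acta1 and Ckm, muscle transcripts came to between 40203 and 51048 TPM (a level scaled to gene length and to the total of the library) in the 17 mice, so the defining genes of the labelled tissue were present. Control + rFibcd1 replicate 2 stood apart from the other libraries on the second principal component, and without it the differences of Ifitm1, Ifitm2, Ifitm3 and Ifitm6 between Control + rFibcd1 and Control kept their signs.

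Ifitm proteins are short proteins of cellular membranes that share a CD225 domain, and they are named for their induction by interferon. They hinder the fusion of enveloped viruses with the membranes of the cell, Ifitm1 mainly at the cell surface and Ifitm2 and Ifitm3 in endosomes and lysosomes. Interferons bind receptors that signal through Janus kinases to Stat and Irf transcription factors, which act on an interferon-stimulated response element (ISRE) or a gamma-activated site (GAS) near the start of their target genes. Ifitm1 is also known as Leu-13, a surface protein found with Cr2 and Cd81 on B cells. Ifitm5 serves bone-forming cells, and the function of Ifitm10 is less well known.

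The 5 genes lie on chromosome 7 of build GRCm38, 4 of them close together. Ifitm2 (ENSMUSG00000060591.9) occupies chr7:140954837-140955987 on the minus strand, Ifitm1 (ENSMUSG00000025491.14) chr7:140967221-140969825 on the plus strand, Ifitm3 (ENSMUSG00000025492.6) chr7:141009586-141010770 on the minus strand and Ifitm6 (ENSMUSG00000059108.4) chr7:141015699-141017924 on the minus strand. Ifitm10 (ENSMUSG00000045777.14) stands apart at chr7:142325837-142373753 on the minus strand. All 5 are annotated as protein-coding in GENCODE vM21. Over the coding sequences, Ifitm1 and Ifitm2 were identical at 82.1% of aligned bases, Ifitm1 and Ifitm3 at 82.1%, and Ifitm2 and Ifitm3 at 80.9%. Every pair that included Ifitm6 or Ifitm10 was identical at 65.7% to 69.3% of aligned bases. In spite of this likeness no stretch of 100 bases, the length of a read, was shared by any pair of transcripts, while Ifitm1 and Ifitm3 shared 15 stretches of 50 bases and Ifitm2 and Ifitm3 shared 20. Ifitm2 overlaps a readthrough transcript, Gm45717, by 1101 bases and Ifitm10 overlaps another, Gm49369, by 2658 bases on the same strand, so reads over these stretches cannot be assigned with certainty.

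The start sites of the genes differed in the interferon elements they hold. Windows from 250 bases before to 50 bases after each RefSeq start (GRCm38.p6) were searched on both strands for the ISRE, spelled as GAAA, any 2 bases and GAAA again, and the GAS, spelled as TTC, any 3 bases and GAA. Of 32851 such windows over all genes, 3.44% hold the ISRE letters and 8.30% the GAS letters. Ifitm3 held 2 ISRE matches, 2 to 11 and 19 to 28 bases after its start, with a GAS match at 13 to 21 that overlaps the second of them. Ifitm2 held 1 ISRE match, 46 to 37 bases before its start (offsets -46 to -37), and Ifitm6 held 1 GAS match at -10 to -2. None of these letters was found in the window of Ifitm1 or in the 3 windows of Ifitm10, which says only that they are not in those windows. A match is a description of the sequence. The stretches are printed 5′ to 3′ on the strand of the gene, with the ISRE matches of Ifitm3 and Ifitm2 and the GAS match of Ifitm6 in capitals (the GAS match of Ifitm3, which overlaps an ISRE match, is not marked). They show where the abundant genes carry their elements, beside bases upstream of the start of Ifitm1, where none was found. They are bases 1 to 30 after the RefSeq start of Ifitm3 (chr7:141010714-141010743, minus strand, inside its first GENCODE exon), the bases before the first exon of Ifitm2 (chr7:140955988-140956211, minus strand), 30 bases around the match of Ifitm6 (chr7:141016894-141016902, minus strand) and the part of the Ifitm1 window upstream of its annotated exons there (chr7:140967826-140968027, plus strand). The stretch of Ifitm1 lies in the first intron of its longest GENCODE transcript and before the start of the others. It ends at offset -49, so the RefSeq start itself is not printed. The GAS match of Ifitm6 lies within a GENCODE exon, although before the RefSeq start.
Ifitm3: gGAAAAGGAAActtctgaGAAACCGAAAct
Ifitm2: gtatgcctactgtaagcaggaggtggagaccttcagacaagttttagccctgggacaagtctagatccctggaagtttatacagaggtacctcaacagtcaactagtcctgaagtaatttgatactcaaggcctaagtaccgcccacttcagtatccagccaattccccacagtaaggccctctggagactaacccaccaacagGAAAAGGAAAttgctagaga
Ifitm6: ccatatgaacTTCCTTGAAacaagagcttc
Ifitm1: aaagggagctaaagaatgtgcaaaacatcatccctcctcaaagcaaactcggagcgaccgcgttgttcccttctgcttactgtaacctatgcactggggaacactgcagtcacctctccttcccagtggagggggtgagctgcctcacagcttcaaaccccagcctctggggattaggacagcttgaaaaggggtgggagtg

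In muscle of Control mice the members spanned a wide range of levels. Ifitm3 averaged 201.3 ± 16.97 TPM (SD, n = 5) and Ifitm2 170.2 ± 19.7 TPM (SD, n = 5), which placed them at ranks 396 and 446 of 21204 genes with a level above 0. Ifitm1 averaged 3.15 ± 0.707 TPM (SD, n = 5) at rank 9579, Ifitm6 1.89 ± 0.783 TPM (SD, n = 5) at rank 10986 and Ifitm10 0.431 ± 0.0944 TPM (SD, n = 5) at rank 13882. Ifitm3 was above Ifitm2 in 17 of 17 mice, by a ratio of 1.01 to 1.38, and Ifitm2 was at least 15.5 times the level of Ifitm1 in each mouse. Ifitm1 was above Ifitm6 in 15 of 17 mice, with Control + rFibcd1 replicates 1 and 5 as the exceptions. Estimated reads behind these levels ran from 71.0 to 504 per mouse for Ifitm1 and from 16.7 to 212.4 for Ifitm6, and they stayed under 100 for Ifitm10, against at least 2183 for Ifitm2 and 2565 for Ifitm3. Of other family symbols, Ifitm5 lay between 0.222 and 2.69 TPM over the 17 mice and Ifitm7 was listed at 0 in each of them.

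**Figure D1:**
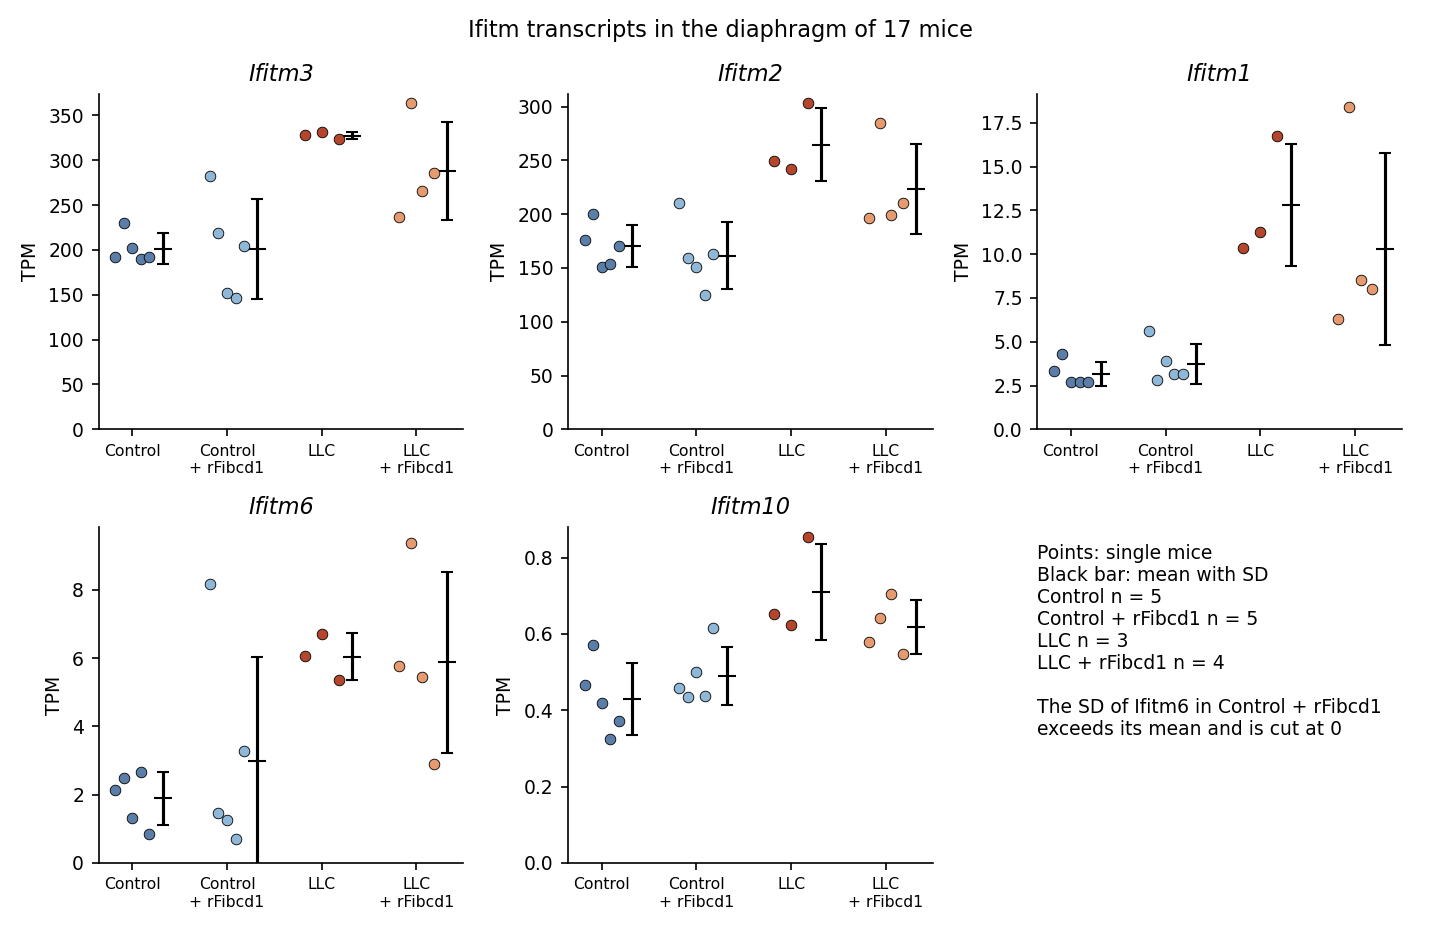
Level of each Ifitm gene in TPM (vertical axes start at 0) in the 4 groups; points are single mice and black bars are means with SD. LLC mice lie above the Control mice in all 5 panels, and the LLC + rFibcd1 mouse at 18.4 TPM is the highest point for Ifitm1.

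In tumor-bearing mice the 5 genes were at higher levels on average, and Ifitm1 stood apart. Ifitm1 read 3.35, 4.31, 2.71, 2.71 and 2.69 TPM in Control mice and 5.60, 2.80, 3.92, 3.18 and 3.14 TPM in Control + rFibcd1 mice. It read 10.4, 11.3 and 16.8 TPM in LLC mice and 6.31, 18.4, 8.51 and 8.02 TPM in LLC + rFibcd1 mice. No tumor-bearing mouse was as low as any tumor-free mouse, the nearest being 6.31 TPM in an LLC + rFibcd1 mouse and 5.60 TPM in a Control + rFibcd1 mouse. On the log2(TPM + 1) scale the difference from Control to LLC was 1.72 ± 0.27 (SE), and that from Control + rFibcd1 to LLC + rFibcd1 was 1.18 ± 0.25 (SE). The pseudocount of 1 TPM shortens differences of a gene at this level, and the ratio of mean TPM was 4.06 from Control to LLC and 2.77 from Control + rFibcd1 to LLC + rFibcd1.

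Ifitm6, a mouse gene of the same cluster, was about as low as Ifitm1 and less regular. It read 2.13, 2.49, 1.31, 2.66 and 0.842 TPM in Control mice and 6.07, 6.71 and 5.35 TPM in LLC mice, without overlap. Control + rFibcd1 mice were at 8.18, 1.45, 1.26, 0.692 and 3.29 TPM, and LLC + rFibcd1 mice at 5.77, 9.37, 5.45 and 2.90 TPM. A single tumor-free mouse, Control + rFibcd1 replicate 1 at 8.18 TPM, was above 6 of the 7 tumor-bearing mice. The difference was 1.33 ± 0.44 (log2, SE) from Control to LLC and 0.99 ± 0.41 (log2, SE) from Control + rFibcd1 to LLC + rFibcd1.

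The abundant genes Ifitm3 and Ifitm2, whose products reside in endosomes, differed by smaller ratios but by more transcripts. Ifitm3 was at 191.8, 230.4, 202.4, 190.2 and 191.9 TPM in Control mice and at 327.6, 330.9 and 323.4 TPM in LLC mice. In Control + rFibcd1 mice it was at 282.2, 218.6, 151.5, 146.0 and 204.4 TPM, and in LLC + rFibcd1 mice at 236.9, 363.4, 266.0 and 285.3 TPM. The LLC mice thus lay close together and above every Control mouse, while the rFibcd1 groups overlapped. The ratio of mean TPM from Control to LLC was 1.63, a difference of 0.70 ± 0.18 (log2, SE).

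Ifitm2 was at 175.8, 199.999, 150.7, 154.1 and 170.7 TPM in Control mice and at 249.1, 241.6 and 303.4 TPM in LLC mice. In Control + rFibcd1 mice it was at 210.2, 158.9, 150.6, 124.8 and 162.7 TPM, and in LLC + rFibcd1 mice at 196.7, 285.2, 199.6 and 210.9 TPM. LLC mice were again above every Control mouse, and 2 of 4 LLC + rFibcd1 mice were above every Control + rFibcd1 mouse. The ratio of mean TPM from Control to LLC was 1.55, a difference of 0.63 ± 0.15 (log2, SE).

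Ifitm10, the member outside the cluster, was near the limit of what the libraries show. It was at 0.465, 0.571, 0.419, 0.326 and 0.372 TPM in Control mice and at 0.653, 0.624 and 0.854 TPM in LLC mice. Control + rFibcd1 mice were at 0.458, 0.434, 0.502, 0.438 and 0.616 TPM, and LLC + rFibcd1 mice at 0.578, 0.642, 0.705 and 0.548 TPM. The levels in LLC mice did not overlap with those in Control mice, and the ratio of mean TPM was 1.65. On the log2(TPM + 1) scale this is a difference of 0.26 ± 0.061 (SE), and Ifitm10 did not reach 1 TPM in any mouse, so it was left out of the test across genes.

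By mean TPM the groups came in the order LLC, then LLC + rFibcd1, then the tumor-free groups for all 5 genes. LLC and LLC + rFibcd1 mice overlapped for all 5 genes, as did Control and Control + rFibcd1 mice. LLC + rFibcd1 mice overlapped with tumor-free mice for Ifitm2, Ifitm3, Ifitm6 and Ifitm10, and did not for Ifitm1. The members together came to 377 ± 35.1 TPM in Control, to 612 ± 33.1 TPM in LLC, to 369 ± 89.1 TPM in Control + rFibcd1 and to 528 ± 103 TPM in LLC + rFibcd1 (mean ± SD over 5, 3, 5 and 4 mice). Ifitm3 kept a like share of that sum, 53.5% in Control and 53.6% in LLC, whereas Ifitm1 took 0.733% to 0.985% of it in single Control mice and 1.75% to 2.58% in single LLC mice. Ifitm3 was at 65.4 ± 9.42 times the level of Ifitm1 in Control, 26.7 ± 6.54 times in LLC, 55.6 ± 15.8 times in Control + rFibcd1 and 31.0 ± 7.96 times in LLC + rFibcd1 (mean ± SD of the ratio of TPM, same mice). These ratios within a mouse are not altered by a scaling factor applied to a whole library.

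Set against the whole transcriptome, 4 of the 5 members passed the filter for low levels, at least 1 TPM in at least 3 mice, and 13305 genes were tested with limma. From Control to LLC all 4 were called higher at an adjusted p under 0.05, where 29.7% of genes tested were, and all 4 had no overlap between the groups, as had 33.6% of genes tested. Between tumor-bearing and tumor-free mice the 4 were called higher, beside 38.8% of genes tested, and 1 of them, Ifitm1, had no overlap between 7 and 10 mice, beside 1.74% of genes tested. From Control + rFibcd1 to LLC + rFibcd1 only Ifitm1 of the 4 was called and without overlap, beside 7.02% and 7.43% of genes tested. From Control to LLC + rFibcd1 only Ifitm1 was called, beside 2.07% of genes tested, and Ifitm1, Ifitm3 and Ifitm6 had no overlap, as had 5.96% of genes tested. The members were chosen on these differences, and nothing is read from the counts. Without LLC replicate 3 none of the 4 was called by limma from Control to LLC, and the number of genes called fell from 4759 to 24. The differences themselves were then 1.52 for Ifitm1, 0.53 for Ifitm2, 0.71 for Ifitm3 and 1.40 for Ifitm6 (log2). Dunn's rank test called 0 of all 13305 genes in this comparison at an adjusted p under 0.05, members included.

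The median of all genes tested was itself higher in LLC than in Control by 0.16 (log2). Mitochondrially encoded transcripts took 45.9% to 48.4% of TPM in Control mice and 41.3% to 44.3% in LLC mice. When TPM were rescaled without these transcripts, the median was 0.081 (log2) over the 14406 genes that then passed the filter. Relative to the median as deposited, 0.16, the difference was 1.56 for Ifitm1, 1.17 for Ifitm6, 0.54 for Ifitm3, 0.47 for Ifitm2 and 0.097 for Ifitm10. The pseudocount of 1 TPM shortens the difference of Ifitm10 most, and its ratio of mean TPM was 1.65 beside 1.63 for Ifitm3. Ifitm1 was ahead of 98.2% of genes tested, Ifitm6 of 96.7%, Ifitm3 of 89.3% and Ifitm2 of 87.5%. Under the other scalings tried these 5 differences stayed positive from Control to LLC, but that of Ifitm10 shrank to 0.021 after quantile normalization. Over all 26 alternatives the difference of Ifitm10 ran from 0.021 to 0.62 (log2). Of the genes called in this comparison 83.2% were higher as deposited, 64.2% after rescaling without mitochondrially encoded genes, 48.1% after median-ratio scaling and 31.8% after quantile normalization.

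**Figure D2:**
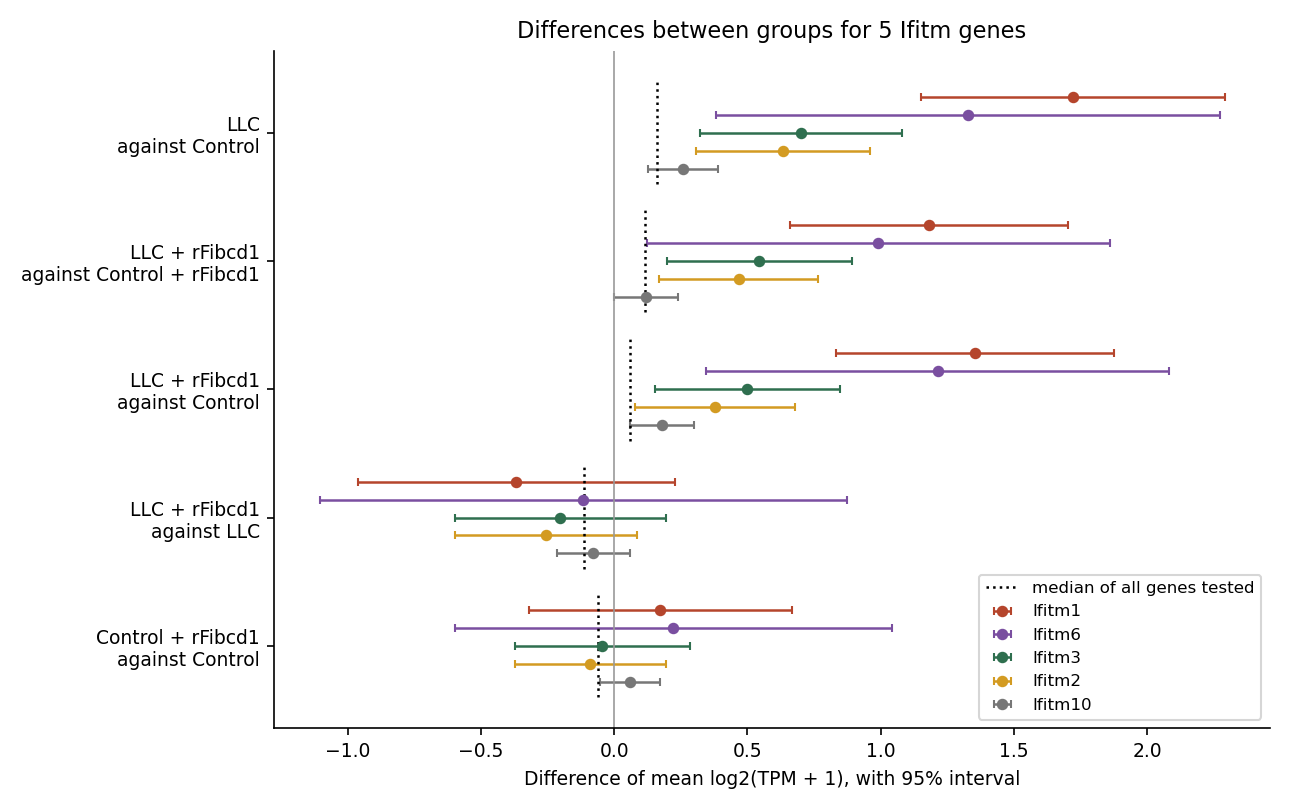
Differences of mean log2(TPM + 1) between groups for the 5 Ifitm genes (horizontal axis) with 95% intervals, 1 block of points per comparison, and the median of all genes tested as a dotted line. In the upper 3 comparisons, which are descriptive, Ifitm1 lies farthest right at 1.72, 1.18 and 1.35, and in the lower pair, the effect of rFibcd1, every interval includes 0.

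The second question of the design is whether rFibcd1 alters these transcripts. It compares groups on the same side of the contrast that led to the members, although the same 17 mice entered that contrast. In mice with tumors the 5 genes were lower on average with rFibcd1, except that Ifitm6 turned positive after median-ratio scaling and quantile normalization and Ifitm10 after the latter (0.099, log2), and no member passed the test. Ifitm1 differed by -0.37 ± 0.28 (log2, SE) between LLC + rFibcd1 and LLC, with an adjusted p of 0.388 in limma, and the 95% interval of the fold ran from 0.513 to 1.17. Ifitm2 differed by -0.26 ± 0.16 (log2, SE; limma, adjusted p = 0.308), with folds of 0.661 to 1.06 in the interval. Ifitm3 differed by -0.20 ± 0.19 (log2, SE; limma, adjusted p = 0.468), with folds of 0.661 to 1.14. Ifitm6 differed by -0.12 ± 0.46 (log2, SE; limma, adjusted p = 0.878), with folds of 0.465 to 1.83. Of all genes tested 0.113% were called in this comparison, and 3025 of 13305 had an unadjusted p under 0.05. The median of all genes was -0.11, and relative to it the differences were -0.25 for Ifitm1, -0.14 for Ifitm2 and -0.088 for Ifitm3, while Ifitm6 lay at the median. For Ifitm10 an exact permutation test over 35 arrangements of the mice gave a two-sided p of 0.286, where 0.0286 is the smallest possible.

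One mouse stood out within the group, LLC + rFibcd1 replicate 2, which had the highest level of Ifitm1, Ifitm3 and Ifitm6 in the series, at 18.4, 363.4 and 9.37 TPM. Without that mouse the difference between LLC + rFibcd1 and LLC was -0.66 for Ifitm1, -0.38 for Ifitm2, -0.32 for Ifitm3 and -0.34 for Ifitm6 (log2), with no member called by limma and adjusted p from 0.122 to 0.626, while 2 of the 4 members had an unadjusted p under 0.05 there and 1 of the 4 had one in the interaction. Without LLC replicate 3 the difference was -0.17 for Ifitm1 and -0.15 for Ifitm2, against -0.37 and -0.26 with all mice (log2). For Ifitm3 and Ifitm6 it was then -0.21 and -0.19. The interval of Ifitm1 with all mice holds folds well below 1 as well as above it, so these mice do not show that its level was the same with and without rFibcd1.

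In tumor-free mice no difference with rFibcd1 passed the test either. Ifitm1 differed by 0.17 ± 0.23 (log2, SE; limma, adjusted p = 0.927) between Control + rFibcd1 and Control, with folds of 0.801 to 1.59 in the 95% interval. Ifitm2 differed by -0.089 ± 0.13, Ifitm3 by -0.045 ± 0.15 and Ifitm6 by 0.22 ± 0.38 (log2, SE; limma, adjusted p = 0.927, 0.955 and 0.931). Ifitm10 differed by 0.059 (log2), with a two-sided p of 0.286 in an exact permutation test whose smallest p is 0.00794. Of all genes tested 0% were called by limma, with 584 genes at an unadjusted p under 0.05. The sign for Ifitm6 rested on Control + rFibcd1 replicate 1, and without that mouse its difference was -0.15 (log2). Those of Ifitm1, Ifitm2 and Ifitm3 were then 0.046, -0.19 and -0.18 (log2).

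Whether the difference with a tumor depended on rFibcd1 was tested as an interaction. It was -0.54 ± 0.36 (log2, SE) for Ifitm1, with an adjusted p of 0.675 in limma, and ran from -0.84 to -0.34 with single mice left out. It was -0.17 ± 0.21 for Ifitm2, -0.16 ± 0.24 for Ifitm3 and -0.34 ± 0.60 for Ifitm6 (log2, SE; limma, adjusted p = 0.782, 0.822 and 0.849). Of all genes tested 0% were called, and 1142 had an unadjusted p under 0.05. With all mice, in the comparisons of rFibcd1 and in the interaction 0 of the 4 members had an unadjusted p under 0.05, and Dunn's rank test, run for the pairwise comparisons, called 0.

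The members varied together from mouse to mouse. Over the 17 mice Pearson's r of log2(TPM + 1) was 0.94 between Ifitm2 and Ifitm3, 0.92 between Ifitm1 and Ifitm2 and 0.87 between Ifitm1 and Ifitm3. The lowest of the 10 pairs was 0.64, between Ifitm6 and Ifitm10. These values describe the same libraries, whose groups differ in level, and after subtracting the group means they were 0.83, 0.84 and 0.60 for the first 3 pairs and 0.20 for the last. Ifitm3 and Ifitm6, which lie 4929 bases apart, had an r of 0.74 after that step, and Ifitm3 and Ifitm10 had 0.15.

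Genes outside the family followed particular members. Among the genes whose pattern over the 17 mice was most like that of Ifitm1 were Ost4 (r = 0.95), a subunit of the oligosaccharyltransferase, and Rpl31 (r = 0.94), which encodes a ribosomal protein. Ifitm2 was most like Anxa2 (r = 0.98), a membrane-binding annexin, S100a11 (r = 0.97), a calcium-binding protein, and Tmem100 (r = 0.96). Ifitm3 was most like Irak3 (r = 0.97), an inhibitor of Toll-like receptor signaling, Lgals3 (r = 0.96), a galectin, and Sfxn3 (r = 0.96). Ifitm6 was most like Ccr1 (r = 0.95), a chemokine receptor of leukocytes, Wnt2 (r = 0.95) and Cd5l (r = 0.95), a protein secreted by macrophages. After subtracting group means the closest genes were Golt1b (r = 0.92), Spats2 (r = 0.91) and Zfp952 (r = 0.87) for Ifitm1, and Anxa2 (r = 0.96), Bcr (r = 0.94) and Zyx (r = 0.94) for Ifitm2. For Ifitm3 they were Myof (r = 0.97), Rab7b (r = 0.97) and Adgrd1 (r = 0.96), and for Ifitm6 they were Alox15 (r = 0.95), Lilrb4a (r = 0.94) and Slc11a1 (r = 0.94), the last a metal transporter of phagocytes. Anxa2 was the only gene to appear in both lists of a member. Each is the top of 13305 genes, and libraries, depth and groups are shared, so the values carry no test.

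Of the other genes close to the members some were silent, and none that was tested was called from Control to LLC. Within 50 kb of a member, Nlrp6, an innate immune sensor, ranged from 0 to 1.10 TPM in Control mice and read 7.03 TPM in 1 LLC mouse and 0 in the other LLC mice, a difference of 0.54 ± 0.64 (log2, SE) that was not called by limma. Ctsd, the lysosomal protease cathepsin D next to Ifitm10, was at 527 ± 36.6 TPM in Control (SD, n = 5) and 591 ± 32.8 TPM in LLC (SD, n = 3), and was not called either (limma, adjusted p = 0.0908). Ifitm5, the bone gene 4546 bases from Ifitm2, differed by 0.16 ± 0.31 (log2, SE; limma, adjusted p = 0.716) from Control to LLC. B4galnt4, a glycosyltransferase gene below the filter, was at 0.0384 to 0.108 TPM in Control mice and 0.1996 to 0.244 TPM in LLC mice, without overlap. Krtap5-1, Krtap5-4, Gm10013, Gm17387 and Gm5054 were listed at 0 in each of them.

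The pathway upstream of the family was examined in lists that were drawn up with results of these mice known, beside the share of 29.7% of all genes called higher from Control to LLC. Transcripts of interferons themselves were scarce. Of 10 ligand genes 9, among them Ifnb1 and Ifna4, were listed at 0 in each of the 17 mice, and Ifng, the interferon of T and NK cells, reached at most 0.232 TPM. Of 7 receptors and kinases 5 rose, with a median of 0.45 (log2) against 0.16 for all genes. Among them were Ifnar2 (0.76 ± 0.20, SE; limma, adjusted p = 0.0152), a chain of the type I interferon receptor, and Tyk2 (0.51 ± 0.13, SE; limma, adjusted p = 0.0132), a kinase bound to it. The 7 transcription factors all rose, with Irf8 (1.39 ± 0.40, SE; adjusted p = 0.0181), a factor of myeloid and B cells, ahead of Irf7 (0.77 ± 0.14, SE; adjusted p = 0.00897) in limma.

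Type I interferon-stimulated genes were divided. Of 26 listed 23 were tested, 9 rose from Control to LLC and 0 fell, with a median of 0.44 (log2). The leading ones were Zbp1 (1.02 ± 0.29, SE), a sensor of nucleic acids, Oas1a (0.91 ± 0.22, SE) and Oas2 (0.70 ± 0.19, SE), which make oligoadenylates that activate RNA decay, and Samhd1 (0.81 ± 0.24, SE), a nucleotide hydrolase. The classical responders Ifit1 (0.17 ± 0.16, SE), Ifit2 (0.078 ± 0.11, SE) and Ifit3 (0.26 ± 0.18, SE), chosen for mention after their values were seen, were not called, with adjusted p of 0.406, 0.582 and 0.259 in limma. The smallest difference among the 4 tested Ifitm genes was 0.63, for Ifitm2. Of 19 interferon-gamma-induced genes 6 rose and 0 fell, a share close to that of all genes, with a median of 0.40 (log2). Those that rose included Ciita (1.67 ± 0.41, SE), the master switch of MHC class II genes, and Psmb8 (1.15 ± 0.34, SE), Psmb9 (1.12 ± 0.35, SE) and Tap1 (1.15 ± 0.35, SE), which serve antigen presentation. In a list of 9 genes of IL-6 family signaling 6 were tested and 3 rose, the receptor Osmr (0.52 ± 0.11, SE), the transcription factor Stat3 (0.38 ± 0.091, SE) and the shared receptor chain Il6st (0.30 ± 0.099, SE).

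These counts moved with the scaling. After quantile normalization, where 1486 of all 13305 genes were called higher and 4667 in either direction, 3 of 7 receptors and kinases rose and 1 fell, 4 of 7 transcription factors rose, and 5 of 23 type I genes rose with a median of 0.15 (log2). Of the interferon-gamma-induced genes 4 then rose and 2 fell, with a median of 0.091 (log2). After median-ratio scaling 4 of them rose and 1 fell, with a median of 0.26 (log2). Of the IL-6 family genes 1 rose after either step, and 1 fell after quantile normalization.

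**Figure D3:**
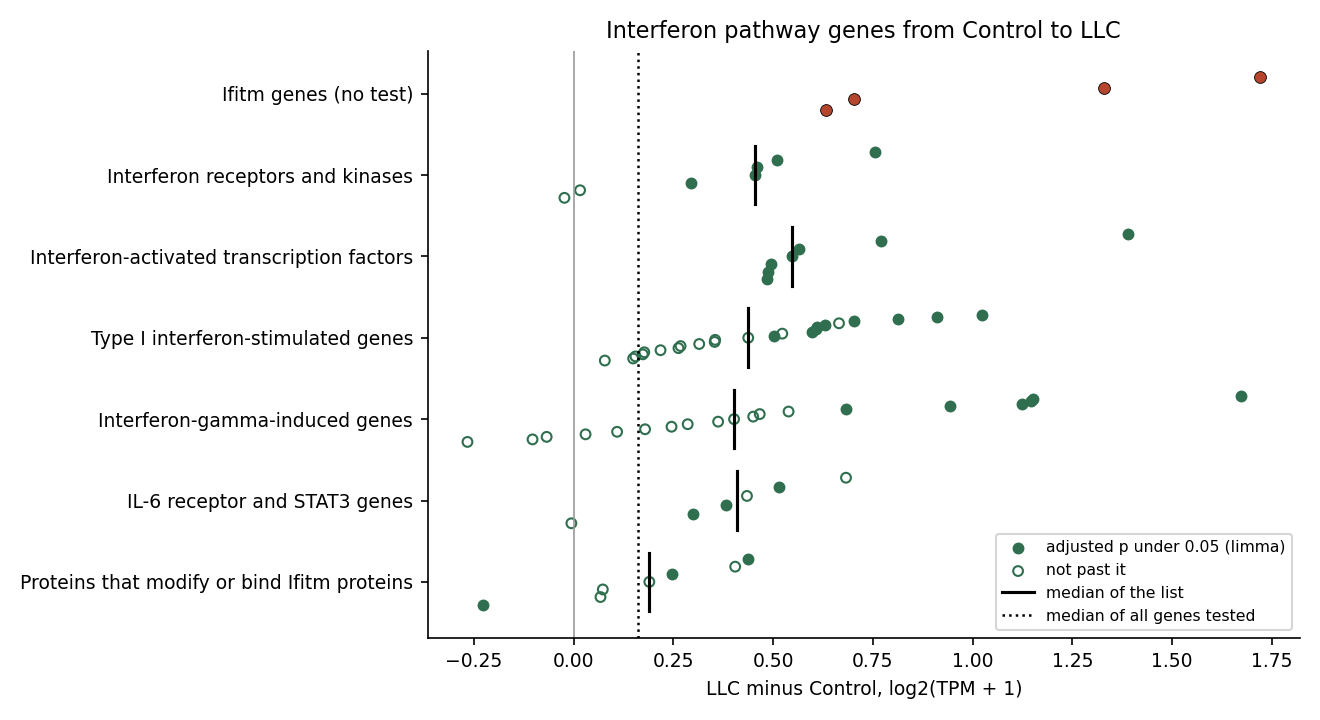
LLC minus Control on the log2(TPM + 1) scale for the 4 tested Ifitm genes and for 6 lists of pathway genes (1 point per gene; filled points have an adjusted p under 0.05 in limma; solid bars are list medians). The dotted line is the median of all genes tested, 0.16, and the Ifitm genes lie at 0.63, 0.70, 1.33 and 1.72.

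Of 7 listed genes whose proteins modify or bind Ifitm proteins 3 were called from Control to LLC, where 4759 of 13305 genes were. Fyn (0.44 ± 0.15, SE), a tyrosine kinase, and Zmpste24 (0.25 ± 0.075, SE), a membrane protease, rose, and Setd7 (-0.23 ± 0.055, SE), a lysine methyltransferase that acts on Ifitm3, fell. Vapa, Vcp, Nedd4 and the palmitoyltransferase Zdhhc20 were not called. None of the 7 rose after median-ratio scaling, quantile normalization or rescaling without mitochondrially encoded genes. Among the partners of Leu-13 on B cells, Cr2 rose by 1.74 ± 0.49 and Cd81, which is made by many cell types, by 0.38 ± 0.086 (log2, SE; limma), and with a pseudocount of 0.1 TPM only 1 call remained in that list. Of the CD225 relatives outside the family only Tmem233 passed the filter, with -0.32 ± 0.12 (log2, SE; limma, adjusted p = 0.0596) from Control to LLC, and it was called lower in tumor-bearing than in tumor-free mice (-0.37, log2).

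From Control + rFibcd1 to LLC + rFibcd1 the 4 lists of the interferon pathway gave no calls, with 0 of 7 receptors and kinases, 0 of 7 transcription factors, 0 of 23 type I genes and 0 of 19 interferon-gamma-induced genes called by limma. At an unadjusted p under 0.05 they gave 4, 3, 4 and 0. Over all genes the calls went from 4759 to 1072 of 13305 between these comparisons, with 3786 at an unadjusted p under 0.05 in the latter. Osmr (0.55 ± 0.10, SE), Stat3 (0.37 ± 0.083, SE) and Cd81 (0.37 ± 0.079, SE) rose and Setd7 (-0.24 ± 0.050, SE) fell there, as did Tmem233 (-0.41 ± 0.11, SE), while Ifitm1 was higher by 1.18. Between LLC + rFibcd1 and LLC none of these lists gave a call in limma. At an unadjusted p under 0.05 were 4 of 7 receptors and kinases, 4 of 7 transcription factors, 5 of 23 type I genes and 11 of 19 interferon-gamma-induced genes, with medians of -0.31, -0.36, -0.26 and -0.52 (log2), beside 0 of the 4 Ifitm genes and 3025 of all 13305 genes. Whether the lists and the Ifitm genes differ in this respect was not tested. Without LLC replicate 3 none of these lists gave a call from Control to LLC by limma, with 7 of 7 transcription factors, 11 of 23 type I genes and 6 of 19 interferon-gamma-induced genes at an unadjusted p under 0.05, and Dunn's test called 0 genes of any list. With the replicate block none of the lists gave a call either, where 5 of all 13305 genes were called and where 5 of 7 receptors and kinases, 7 of 7 transcription factors, 10 of 23 type I genes and 6 of 19 interferon-gamma-induced genes had an unadjusted p under 0.05.

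Markers of several cell types differed along with the members. From Control to LLC 8 of 8 B cell markers, 8 of 8 T cell markers, 6 of 6 tested neutrophil markers, 6 of 8 monocyte markers and 5 of 9 macrophage markers rose in limma, against 3 of 11 for endothelium, 1 of 7 for fibroblasts, 0 of 6 for mesothelium and 0 of 5 for adipocytes, and 4 of 8 myofiber genes fell. Of all genes tested 29.7% were called higher in this comparison, and 801 of 13305 were called lower. Without LLC replicate 3 none of these markers was called by limma, with 8 B cell, 8 T cell, 6 neutrophil, 7 monocyte and 5 macrophage markers at an unadjusted p under 0.05. With the replicate block none was called either, with 6, 8, 6, 6 and 5 of them at an unadjusted p under 0.05. B cell markers called were 2 of 8 with a pseudocount of 0.1 TPM, 4 with no filter on low levels and 4 after rescaling without mitochondrially encoded genes. Monocyte markers called were 4 of 8 with no filter and after median-ratio scaling or quantile normalization. Macrophage markers called were 1 of 9 with no filter and 2 after median-ratio scaling or the mitochondrial rescaling. For endothelium 1 marker rose and 1 fell after median-ratio scaling or quantile normalization. Of all genes, 3639 of 13305 were called higher with a pseudocount of 0.1 TPM, 4197 of 22950 with no filter and 2629 of 14406 after the mitochondrial rescaling. After median-ratio scaling 1887 of 13233 were, and after quantile normalization 1486 of 13305. Among the lists with no call, the 5 adipocyte markers were all positive with a median of 1.72 (log2), their sum being 584 to 1703 TPM in Control and 1029 to 3796 TPM in LLC. The 6 mesothelium markers were likewise all positive with a median of 0.67 (log2). From Control + rFibcd1 to LLC + rFibcd1, where 7.02% of all genes were called higher, 8 of 11 endothelium, 5 of 6 tested neutrophil and 2 of 8 monocyte markers rose in limma, and 0 of 9 macrophage, 0 of 8 B cell and 0 of 8 T cell markers were called. The endothelium markers summed to 274.8 to 313.6 TPM in Control + rFibcd1 and 371.6 to 398.6 TPM in LLC + rFibcd1, without overlap. The neutrophil markers summed to 5.17 to 17.6 TPM in Control, 5.38 to 81.3 in Control + rFibcd1, 51.8 to 113.8 in LLC and 58.1 to 219.6 in LLC + rFibcd1. Of these 12 markers 6, the granule genes Camp, Ngp, Ltf and Mmp8 with Ly6g and Cebpe, were below the filter, and S100a8 and S100a9 led the list, 3.01 and 3.33 higher (log2). The monocyte markers summed to 18.4 to 35.9 TPM in Control, 12.9 to 57.0 in Control + rFibcd1, 65.0 to 77.3 in LLC and 30.4 to 74.2 in LLC + rFibcd1. The macrophage markers summed to 194.9 to 297.8 TPM in Control, 127.4 to 475.5 in Control + rFibcd1, 395.7 to 492.8 in LLC and 207.0 to 448.9 in LLC + rFibcd1. The B cell markers summed to 2.59 to 100.8 TPM in Control, 3.49 to 142.6 in Control + rFibcd1, 234.1 to 300.8 in LLC and 18.6 to 287.0 in LLC + rFibcd1. Between LLC + rFibcd1 and LLC no marker was called by limma. The list medians there were -1.81 for B cells, -1.20 for T cells, -0.52 for macrophages, -0.34 for monocytes, 0.097 for neutrophils and 0.17 for endothelium (log2). The part of any of these cells in the levels of the Ifitm genes was not tested.

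**Figure D4:**
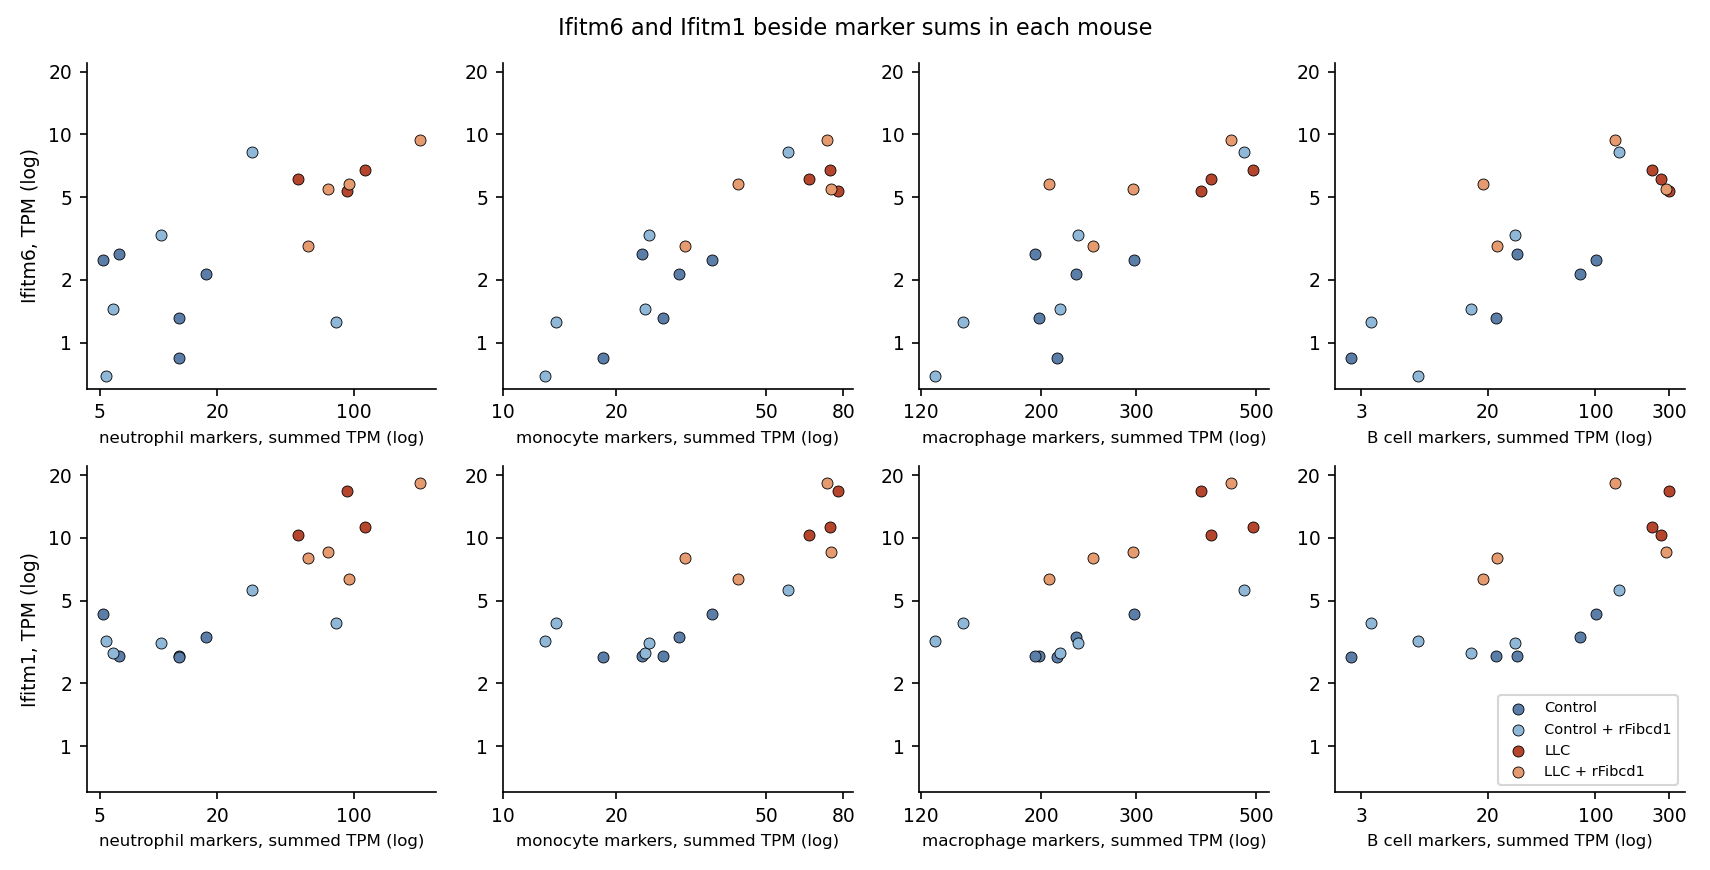
Ifitm6 (upper row) and Ifitm1 (lower row) in TPM against the summed TPM of neutrophil, monocyte, macrophage and B cell markers, 1 point per mouse, with all axes logarithmic. The Control + rFibcd1 mouse at 8.18 TPM of Ifitm6 lies among the LLC mice on the macrophage axis, at 475.5 TPM. In the lower row the tumor-bearing mouse with the least Ifitm1, 6.31 TPM, also has the lowest B cell sum of the tumor-bearing mice, 18.6 TPM. LLC + rFibcd1 replicates 3 and 4, at 8.51 and 8.02 TPM of Ifitm1, have B cell sums as far apart as 287.0 and 22.8 TPM.

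The marker sums of single mice, picked after their values were seen, are given beside the members as a description. Control + rFibcd1 replicate 1, the tumor-free mouse with the most Ifitm6, had the highest macrophage sum of its group, 475.5 TPM, and a B cell sum of 142.6 TPM, and it also had the most Ifitm1 (5.60 TPM), Ifitm2 (210.2 TPM) and Ifitm3 (282.2 TPM) of the tumor-free mice. Control + rFibcd1 replicate 3 had 81.3 TPM of neutrophil markers and Ifitm6 at 1.26 TPM, while LLC replicate 1 had 51.8 TPM of these markers and Ifitm6 at 6.07 TPM. LLC + rFibcd1 replicate 1 had 18.6 TPM of B cell markers and 207.0 TPM of macrophage markers, both within the range of Control mice, 93.99 TPM of neutrophil markers, above that range, and 6.31 TPM of Ifitm1.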

How the data were processed

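Diaphragm RNA of 17 mice was sequenced as paired reads of 100 bases. The authors aligned trimmed reads to mouse build GRCm38 (mm10) in CLC Genomics Workbench and deposited TPM per gene. Labels and methods name different library kits, and whether counting used strand is not given in the sources used here. Steps of low TPM values give an estimated 50800000 to 54600000 reads per library. Since 76.8% to 78.3% of low values came within 0.02 of a whole read, no count test was run.

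limma (3.58.1, R 4.3.3), checked on simulated data, was fitted to log2(TPM + 1) of the 13305 genes that reached 1 TPM in 3 or more mice. The 4 groups shared 1 fit with a mean-variance trend, and p-values were adjusted by Benjamini-Hochberg over these genes at a threshold of 0.05. Tumor-bearing and tumor-free mice were contrasted with groups weighted by size. Ifitm10 was tested by exact permutation. Alternatives were Dunn's test, other pseudocounts, filters, scalings and fits, a replicate block and each mouse left out. Dunn's test is that of the study's methods, but its p-values were adjusted over genes here, while the study gives a cutoff of p under 0.05. The members and lists were chosen with earlier results of these data known. Named were the members, other Ifitm symbols, the 3 genes most correlated with each tested member, genes within 50 kb, and at most 4 called genes per list with the largest change from Control to LLC. Coding sequences (GENCODE vM21) were aligned in place of the planned protein alignment. P-values measure the spread between single mice. A few genes that this rule names are not reported here.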

Additional observations from a re-analysis of the deposited data

Results flagged for a closer look

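Of 15 combinations of a member and a group of at least 4 mice, 1 held a mouse far from the others. Ifitm2 in LLC + rFibcd1 replicate 2 was at 285.2 TPM, and the nearest mouse of its group was at 210.9 TPM. The gap divided by the range of the group was 0.839, just above the limit for 4 mice. Chance alone gives such a mark in about 1 of 20 groups. The same mouse had 219.6 TPM of neutrophil markers, the highest sum of the series, and 448.9 TPM of macrophage markers. Whether these go with its Ifitm2 level was not tested.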

How the results depend on the processing

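Ifitm1, Ifitm2, Ifitm3 and Ifitm6 had a positive difference in each comparison of tumor-bearing with tumor-free mice under every alternative run, while the difference of Ifitm10 was -0.016 between LLC + rFibcd1 and Control + rFibcd1 after quantile normalization. The number of the 4 tested members called from Control to LLC was 0 with a replicate block, where 5 of 13305 genes were called, and 0 with Dunn's test, where no gene was, and 0 to 4 with single mice left out, the 0 arising without LLC replicate 3, where 24 genes were called. Between LLC + rFibcd1 and Control + rFibcd1 it was 0 when only these groups were fitted, which called 304 genes in place of 1072, 0 with Dunn's test and 1 to 4 with single mice left out, with 4 without Control + rFibcd1 replicate 1, where 2895 of 13274 genes were called, and 2 without LLC + rFibcd1 replicate 1, where 1122 were. Between LLC + rFibcd1 and Control it was 0 with Dunn's test and 1 to 3 with single mice left out, with 3 without Control + rFibcd1 replicate 1, where 600 genes were called in place of 410. Between tumor-bearing and tumor-free mice it was 4 without each mouse, and for the effect of rFibcd1 and the interaction it stayed at 0. The cause was not tested in any of these cases. Replicate numbers do not mark shared animals, and samples with the same number deviated together with an r above 0.1 in 4 of 22 pairs (range -0.46 to 0.49); besides the calls lost from Control to LLC, the replicate block kept the other counts of called members. Signs of small differences turned. The difference of Ifitm3 between Control + rFibcd1 and Control was 0.035 with median-ratio scaling and -0.18 to 0.058 with single mice left out. That of Ifitm6 between LLC + rFibcd1 and LLC was 0.00290 with median-ratio scaling, 0.12 after quantile normalization, 0.034 with the replicate block and -0.34 to 0.13 with single mice left out. That of Ifitm10 between LLC + rFibcd1 and LLC was 0.099 after quantile normalization. That of Ifitm6 between Control + rFibcd1 and Control was -0.15 to 0.46, and its interaction -0.57 to 0.036, with single mice left out. Over all alternatives the adjusted p of Ifitm1 between LLC + rFibcd1 and LLC ran from 0.122 to 0.797, that of Ifitm2 from 0.138 to 0.689, that of Ifitm3 from 0.233 to 0.823 and that of Ifitm6 from 0.626 to 0.998. Few reads limit Ifitm10, Ifitm6 and Ifitm1, and groups of 3 to 5 mice limit every test.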
